A study of Mus musculus with 2 samples.

Results

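The immediate early genes of lung leukocytes studied here, 10 in number, were followed across 8 gates of single cells, in 1 library from mice given diphtheria toxin (DT) and 1 library from mice given PBS. The genes were Fos, Fosb, Jun, Junb, Jund, Egr1, Ier2, Ier3, Atf3 and Nr4a1. They are 10 of the 16184 genes measured, and all were detected in all 8 gates of both libraries. The mice of both groups carried Scgb1a1cre, whose promoter is active in the club cells of the airways, together with iDTR, a toxin receptor that Cre switches on. All were given HKP1 lung tumour cells (150000 cells, through the tail vein), tamoxifen at 2 mg per 20 g on days 3 to 7, and a PD-1 antibody (clone RMP1-14, 250 µg per mouse) on day 6. The DT group then received 2 doses of toxin at 600 ng per 20 g on days 8 and 9, and the PBS group is the control by its title. The treatment text is the same for both. Both groups were irradiated with 4 Gy on each of the 3 days from day 10 to day 12. Lungs were taken 24 to 48 h after radiation, DAPI-negative CD45+ cells were sorted, and 10x Genomics 3′ libraries were made from 4 mice per group. No label ties a cell to a mouse, so the spread between mice cannot be had and no test was run. Every interval is an exact 95% interval that covers counting error only.

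Immediate early genes are transcribed within minutes of a stimulus, without new protein synthesis, and their mRNAs are short-lived. Fos and Fosb proteins pair with Jun, Junb or Jund to form AP-1, a family of dimeric transcription factors. Egr1 and Nr4a1 encode a zinc finger factor and an orphan nuclear receptor, Atf3 a stress-induced bZIP factor, and Ier2 a nuclear early response protein. Ier3 encodes a small early response protein linked to cell survival that is not known as a DNA-binding factor. In neutrophils and monocytes these genes are switched on by adhesion, cytokines and microbial products, in T and B cells by the antigen receptor, and in any of them by enzymatic dissociation of the tissue.

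The promoters of 3 members are shown because these genes stand at different places in the results below: Ier3 and Nr4a1 were higher in DT cells of several gates, and Fos was near even in most. Each runs from 250 bases before the start to 50 after it, 5′ to 3′ on the gene's strand, as given by RefSeq on GRCm38.p6. Capitals mark TGACG on either strand, the core of the cAMP response element, and GGAATTTCC on either strand, a form of the NF-kB site.
Ier3 promoter, chr17:35821463-35821762, + strand: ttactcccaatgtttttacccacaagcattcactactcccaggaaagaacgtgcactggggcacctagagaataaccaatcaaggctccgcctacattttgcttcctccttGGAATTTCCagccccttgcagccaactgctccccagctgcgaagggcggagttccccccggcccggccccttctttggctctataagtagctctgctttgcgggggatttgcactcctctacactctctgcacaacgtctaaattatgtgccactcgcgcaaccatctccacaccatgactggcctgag
Nr4a1 promoter, chr15:101266596-101266895, + strand: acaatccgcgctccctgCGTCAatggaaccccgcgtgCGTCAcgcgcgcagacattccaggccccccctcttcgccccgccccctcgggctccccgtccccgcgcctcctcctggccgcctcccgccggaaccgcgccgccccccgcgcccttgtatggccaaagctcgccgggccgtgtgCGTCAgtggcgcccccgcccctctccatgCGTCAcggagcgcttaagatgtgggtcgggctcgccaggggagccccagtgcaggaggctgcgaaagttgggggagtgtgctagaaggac
Fos promoter, chr12:85473640-85473939, + strand: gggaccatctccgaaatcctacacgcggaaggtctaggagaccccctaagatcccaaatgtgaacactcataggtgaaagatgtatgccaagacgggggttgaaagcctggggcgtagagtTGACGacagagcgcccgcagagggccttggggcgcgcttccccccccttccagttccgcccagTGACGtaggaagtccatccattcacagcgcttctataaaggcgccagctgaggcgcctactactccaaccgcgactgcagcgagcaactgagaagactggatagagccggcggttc
Of the 10 members, 8 had an entry, all but Egr1 and Ier2. TGACG occurred in 5 of the 8, namely Atf3, Fos, Fosb, Junb and Nr4a1, against 20.8% of 32851 promoters of the same length, and the palindrome TGACGTCA, which contains it, in 0 of the 8 against 1.79%. GGAATTTCC occurred in the Ier3 promoter alone, first at position -139 from the start, and in 0.317% of all promoters. These are matches of letters and not sites of binding.

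The DT library held 6203 cells and 27896059 UMIs, and the PBS library 5702 cells and 31089434 UMIs, with a median of 2909 and 3719 UMIs per cell. After removal of small cells, 5896 DT cells and 5651 PBS cells were kept. A gate took every cell with at least 1 UMI of each of its genes: Csf3r with S100a8 for neutrophils (1492 DT and 1058 PBS cells), Ly6c2 with Ccr2 for classical monocytes (518 and 538), Treml4 (298 and 502), C1qa (622 and 541), Cd209a (119 and 114), Cd3e (1194 and 1317), Cd79a (1183 and 1561) and Ncr1 (258 and 306). The gates overlap: 778 DT cells and 865 PBS cells met 2 or more, and cells that met 1 gate only are called single-gate cells. Of the cells with a sex call from Xist or 4 Y-linked genes, 31.9% of DT cells and 87.2% of PBS cells were called male, so sex and treatment are partly confounded. Markers of each named type were high in its gate. The 8 neutrophil markers summed to 37010 CPM in DT and 38760 CPM in PBS in the neutrophil gate, and the 6 T cell markers to 4461 and 4360 CPM in the Cd3e gate. The Treml4 and Cd209a gates were exceptions. In the Treml4 gate markers of nonclassical monocytes summed to only 541 CPM in DT and 1307 CPM in PBS. Its neutrophil markers summed to more, 12537 and 8433 CPM. In the Cd209a gate markers of type 2 dendritic cells summed to 1489 CPM in DT and 1440 CPM in PBS. Its classical monocyte markers summed to more, 2682 and 2592 CPM. Of the Cd209a gate, 25.2% of DT cells and 33.3% of PBS cells also met the classical monocyte gate.

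The members were abundant in neutrophils and scarce in lymphocytes. The 10 genes together made up 1.53% of the UMIs of the neutrophil gate in DT and 1.31% in PBS, against 0.211% and 0.200% in the Cd79a gate. Levels are given as CPM, a gene's UMIs scaled to the total UMIs of the cells in a gate, and a 3′ UMI count does not grow with transcript length. CPM is a share of UMIs, and the gates differed in UMIs per cell. The median was 2414 in DT and 2792 in PBS for neutrophils, against 8619 and 9285 for the C1qa gate. A higher CPM therefore need not mean more UMIs per cell. By CPM, the neutrophil gate was highest in both libraries for 9 of the 10 members. Jun, a core AP-1 subunit, was the exception, being highest in classical monocytes in DT (453 CPM) and in the Cd209a gate in PBS (482 CPM). Its neighbours in the DT order, Cd209a at 422 CPM and Treml4 at 379 CPM, did not differ from the gate next to them beyond counting error. Egr1 had the widest span in DT, where its highest gate stood 20.2-fold above its lowest, and Ier3 in PBS, with 17.6-fold. Jund, the AP-1 subunit with the most even expression here, spanned only 2.62-fold in DT and 2.27-fold in PBS. For Fos in whole DT gates the order was neutrophil, Treml4, C1qa, classical monocyte, Cd209a, Ncr1, Cd3e and Cd79a. It ran from 3907 to 274 CPM, with no neighbouring intervals overlapping. In PBS, C1qa at 1399 CPM and Treml4 at 1349 CPM stood in the other order, within counting error. The gates overlap, and single-gate DT cells had another order for Fos. Neutrophils stood at 5442 CPM, classical monocytes at 1285, C1qa at 1257 and Treml4 at 1236 CPM. Cd209a followed at 877 CPM, Cd3e at 80.6, Cd79a at 46.0 and Ncr1 at 29.2 CPM. For Atf3 in whole DT gates, neutrophils (324 CPM) and the Treml4 gate (299 CPM) did not differ beyond counting error, nor did Treml4 and C1qa (267 CPM). C1qa lay below neutrophils, and the Cd209a gate was lower again at 108 CPM (90.2 to 129).

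**Figure D1:**
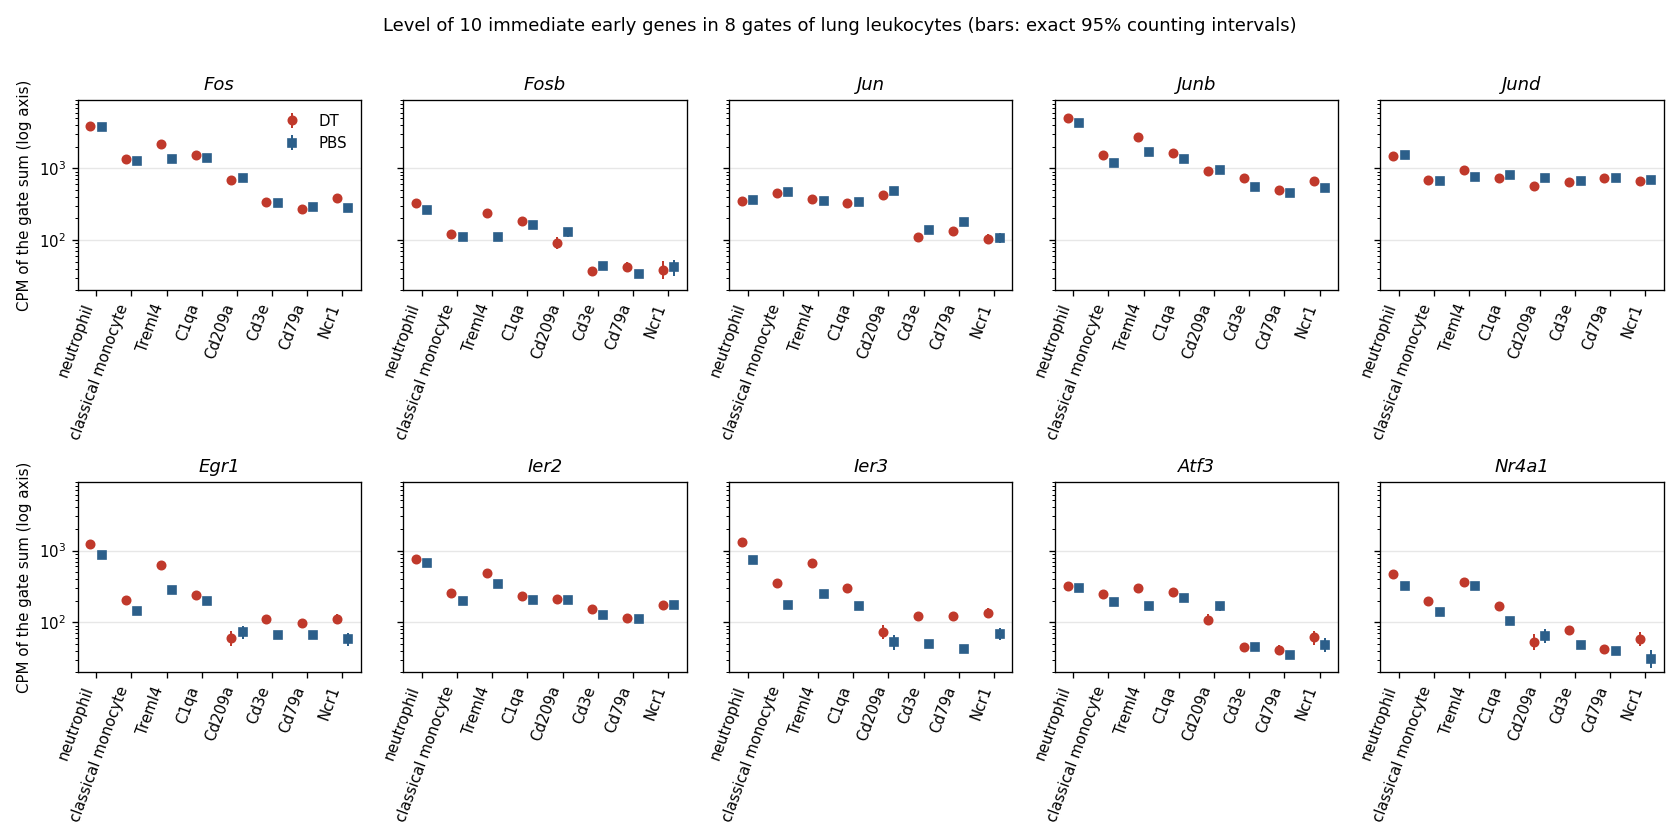
Level of each of the 10 genes in each gate, in CPM of the gate sum on a log axis, with DT as circles and PBS as squares and exact 95% counting intervals as bars. Neutrophils lead for 9 genes in both libraries, whereas Jund stays between 575 and 1508 CPM in DT.

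Together the 10 genes made up a larger share of UMIs in DT cells of every gate but Cd209a, where it was 0.319% in DT and 0.358% in PBS. Of 80 values of gene by gate, 56 were above 0 as a log2 ratio of DT over PBS, with 5 CPM added to both sides. The interval of the plain ratio lay above 1 for 48, below 1 for 8 and included 1 for 24. By size, 17 values were at least 1.5-fold higher in DT and 1 was at least 1.5-fold lower. Of all genes tested, 0.788% to 4.62% per gate were higher by that much and 0.872% to 4.48% lower. Ier3 was at least 1.5-fold higher in 7 of 8 gates, Egr1 and Nr4a1 in 3 each, and Fos, Fosb, Junb and Atf3 in 1 each. Jun, Jund and Ier2 were past 1.5-fold in none. Jun was above 0 in 1 gate and Jund in 2.

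**Figure D2:**
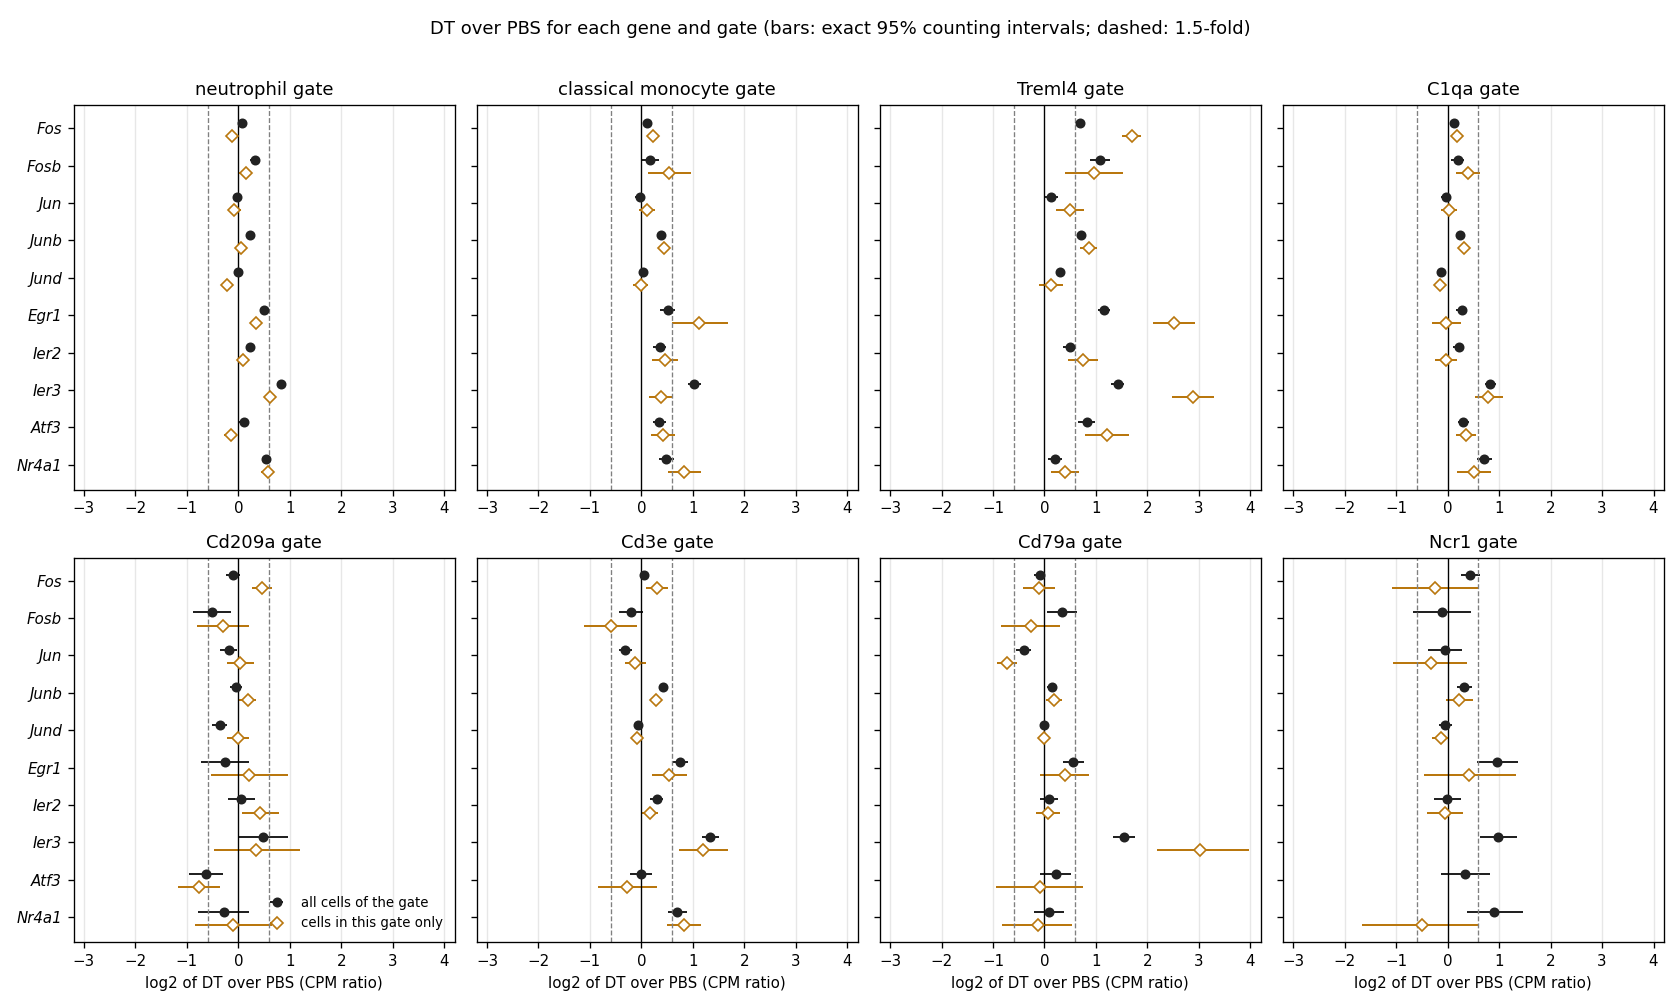
DT over PBS of the CPM of each gene, on a log2 axis without added CPM, for all cells of a gate (filled circles) and for single-gate cells (open diamonds, drawn where both libraries together held at least 20 UMIs), with exact 95% counting intervals. Ier3 lies right of 0 in every panel, and the single-gate cells of the Treml4 gate reach 7.35-fold for Ier3 and 5.70-fold for Egr1.

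In neutrophils, Ier3 had 1320 CPM in DT and 740 CPM in PBS, from 8216 and 3966 UMIs, a ratio of 1.78 (1.72 to 1.85). It was the only member past 1.5-fold there, against 1.38% of 10191 genes higher and 1.53% lower by that much. Nr4a1 had 469 CPM in DT and 322 CPM in PBS (ratio 1.46, 1.37 to 1.55). Egr1 had 1222 CPM in DT and 864 CPM in PBS (ratio 1.41, 1.36 to 1.47). The AP-1 genes had lower ratios than these 3. Fosb had 332 CPM in DT and 266 CPM in PBS, and Junb, the most abundant member, 5086 CPM in DT and 4350 CPM in PBS. Fos had 3907 and 3736 CPM in DT and PBS, Jun 353 and 358 CPM, and Jund 1508 and 1519 CPM, so that these 3 lay within 5% of even. The median log2 ratio of the 10 members was 0.22, against 0.02 over all genes of the gate.

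Among single-gate neutrophils the members went both ways. The median log2 ratio was 0.08 there, with Ier3 at 1780 CPM in DT and 1160 CPM in PBS (ratio 1.53), Nr4a1 at 585 and 394 CPM (1.48) and Egr1 at 1714 and 1350 CPM (1.27). Fos, by contrast, was lower there, with 5442 CPM in DT and 5929 CPM in PBS (0.92, 0.90 to 0.94), as was Jund with 2001 and 2338 CPM (0.86, 0.82 to 0.89). The part of other cell types in the whole gate or in single-gate cells was not tested. Epithelial markers summed to 21.3 CPM in DT and 1807 CPM in PBS in single-gate neutrophils. In the whole neutrophil gate they summed to 19.4 CPM in DT and 728 CPM in PBS. Most of the whole-gate PBS sum was Sftpc, at 10.9 CPM in DT and 586 CPM in PBS. Of the 6 markers, Scgb3a2 and Cyp2f2 had no UMI in DT and 8.59 and 8.96 CPM in PBS. Cells were also divided by a UMI of Ccl3, a chemokine gene, a split chosen after the data were seen. With Ccl3, in 29.8% of DT and 26.6% of PBS neutrophils, Ier3 had 1634 CPM in DT and 823 CPM in PBS (ratio 1.98, 1.87 to 2.10). Without it, Ier3 had 1086 CPM in DT and 693 CPM in PBS (ratio 1.57, 1.49 to 1.65). Fos was more abundant in the cells without Ccl3, at 4370 CPM in DT and 4116 CPM in PBS, than in those with it, at 3286 and 3069 CPM. Within male-called neutrophils, 254 in DT and 433 in PBS, the median log2 ratio was higher, at 0.62, and Fos stood at 0.66.

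Per cell, neutrophils of the DT group more often carried Ier3 and Nr4a1. After every cell was thinned to 1000 UMIs, 49.1% of DT neutrophils (46.5 to 51.8) and 38.9% of PBS neutrophils (35.9 to 42.0) had an Ier3 UMI. For Nr4a1 the shares were 35.3% in DT (32.8 to 37.8) and 24.9% in PBS (22.2 to 27.6). Egr1 (58.2% in DT, 53.4% in PBS), Fos (89.4% and 88.6%), Jun (22.0% and 21.9%) and Atf3 (25.3% and 25.1%) had overlapping intervals. Per thinned cell the level of Ier3 differed less than in the sums, with a log2 ratio of 0.53, under the 1.5-fold line. Without thinning, the Ier3 shares were 65.8% and 60.0%, in cells with a median of 2414 and 2792 UMIs. No gate lacks these genes, so a share in a cell type without them could not be set beside these.

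Several members occurred together in a cell. At least 5 of the 10 were seen in 70.2% of thinned DT neutrophils (67.8 to 72.5) and 65.2% of PBS neutrophils (62.2 to 68.1), and at least 5 in 45.1% (39.2 to 51.1) and 23.1% (19.4 to 27.0) of the Treml4 gate. Classical monocytes had 19.0% in DT and 12.5% in PBS, the C1qa gate 20.1% and 15.7%, and the Cd209a gate 7.83% and 10.7%. In the lymphoid gates the shares were 3.37% and 2.30% for Cd3e, 2.98% and 1.94% for Cd79a, and 3.89% and 2.95% for Ncr1. The intervals of the 2 libraries overlapped in all gates but classical monocytes and Treml4. Without thinning the shares were 92.9% in DT and 92.2% in PBS for neutrophils, 68.1% and 66.2% for classical monocytes, and 80.5% and 72.5% for the Treml4 gate.

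**Figure D3:**
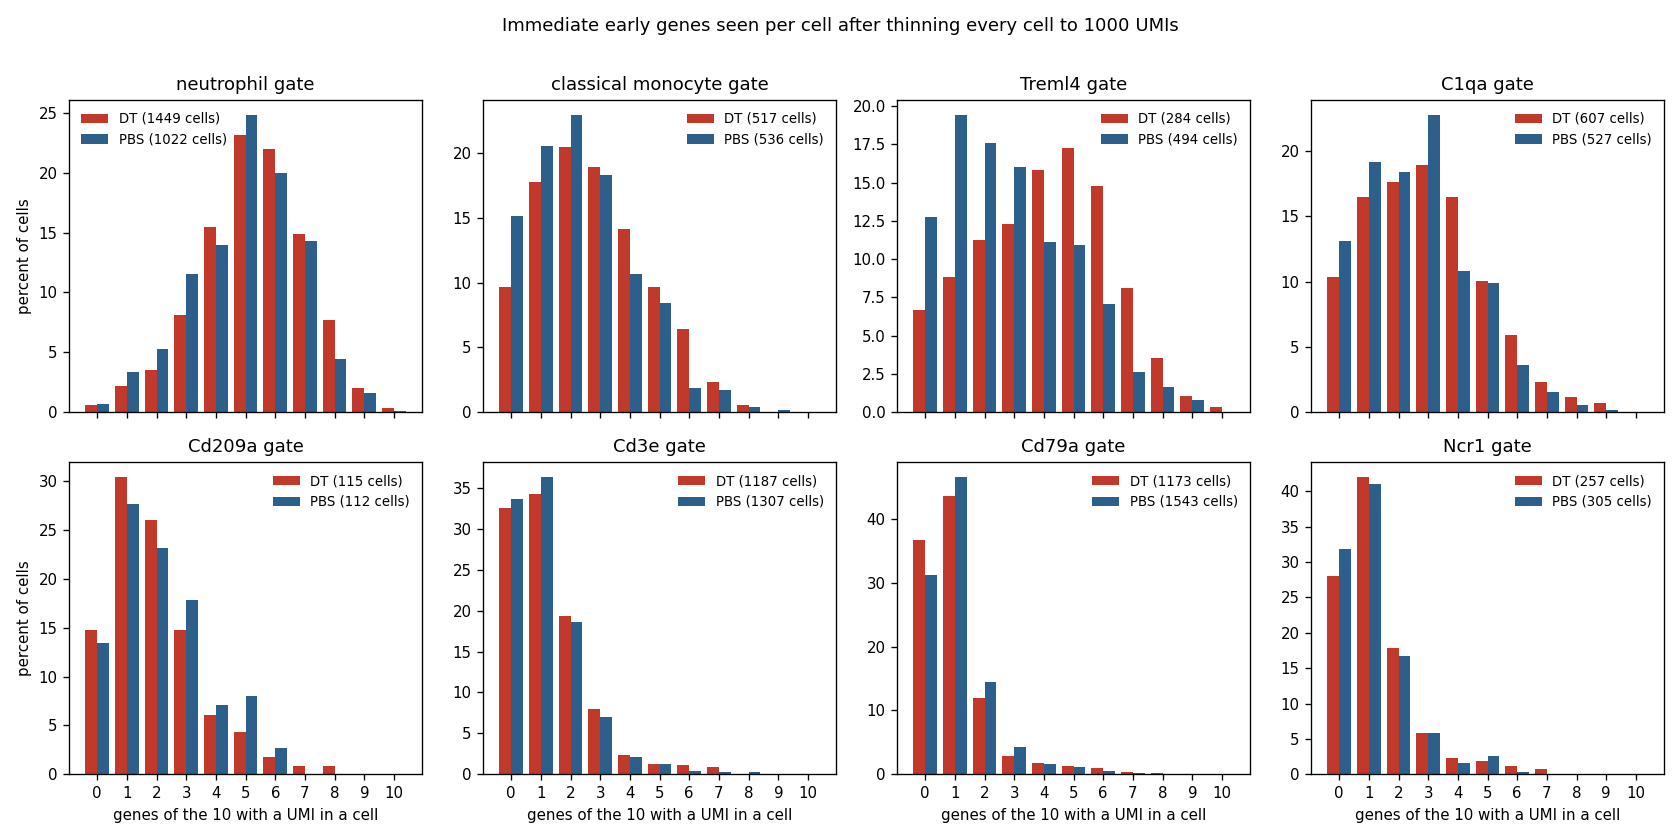
Percent of cells by how many of the 10 genes had a UMI, after thinning to 1000 UMIs, with DT bars left of PBS bars and one panel per gate. The Treml4 panel shows the widest shift, with 45.1% of DT cells and 23.1% of PBS cells at 5 or more.

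In classical monocytes 9 of 10 members were above 0, with a median log2 ratio of 0.34. Ier3 had 357 CPM in DT and 175 CPM in PBS (ratio 2.04, 1.88 to 2.22), the only member past 1.5-fold, against 1.13% of genes higher and 0.872% lower. Egr1 had 203 CPM in DT and 143 CPM in PBS (1.42), Nr4a1 196 and 140 CPM (1.40), Junb 1548 and 1188 CPM (1.30), and Atf3 246 and 194 CPM (1.27). Among single-gate monocytes, 214 in DT and 171 in PBS, Ier3 was less apart, at 264 and 203 CPM (1.30, 1.10 to 1.53), while Nr4a1 at 186 and 105 CPM (1.78, 1.43 to 2.22) and Egr1 at 73.5 and 33.8 CPM (2.17) were further apart. The Egr1 value rests on 94 DT and 43 PBS UMIs. The sex calls moved with these values: in male-called monocytes the log2 ratio of Ier3 was 0.09 and the median 0.06, and in female-called ones, of which PBS held 37, they were 2.98 and 1.04. Whether sex has a part in the difference was not tested. In single-gate monocytes classical monocyte markers summed to 9456 CPM in DT and 8643 CPM in PBS. Macrophage markers summed to 2230 and 1407 CPM there, NK markers to 496 and 29.1 CPM, and red cell markers to 1074 and 0.787 CPM. The part of these other cell types was not tested.

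In the C1qa gate, which takes macrophages, Ier3 had 302 CPM in DT and 169 CPM in PBS (ratio 1.78, 1.65 to 1.93) and Nr4a1 170 and 103 CPM (1.64, 1.48 to 1.82). These were the 2 members past 1.5-fold, against 0.788% of genes higher and 1.43% lower. Both were also higher in single-gate cells, with Ier3 at 162 CPM in DT and 93.5 CPM in PBS (1.73, 1.44 to 2.10) and Nr4a1 at 94.9 and 66.8 CPM (1.42, 1.13 to 1.79). Fos (1522 and 1399 CPM), Atf3 (267 and 215 CPM) and Junb (1615 and 1365 CPM) had ratios from 1.09 to 1.24, and Jund was lower, with 735 CPM in DT and 806 CPM in PBS (0.91, 0.88 to 0.95). In the 72 DT and 278 PBS cells called male the log2 ratio of Ier3 was -0.58, against 2.79 in the 322 DT and 41 PBS cells called female. Nr4a1 missed the 1.5-fold line in male-called cells too, with a log2 ratio of 0.18.

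The Cd209a gate, which takes a subset of dendritic cells, had a median log2 ratio of -0.22, with 2 of 10 members, Ier3 and Ier2, above 0. The intervals of 5 members included 1, and those of Fosb, Jun, Jund and Atf3 lay below 1. Atf3 was the member past 1.5-fold, with 108 CPM in DT and 167 CPM in PBS, from 127 and 210 UMIs (ratio 0.65, 0.52 to 0.81). In this gate 2.61% of genes were higher and 4.15% lower by that much. Jund had 575 CPM in DT and 736 CPM in PBS (0.78, 0.71 to 0.86), and Fosb 90.4 and 128 CPM (0.70, 0.55 to 0.91). In single-gate cells, 73 in DT and 54 in PBS, the median was 0.11 and Jund was even (606 and 607 CPM), but Atf3 was lower still at 129 CPM in DT and 219 CPM in PBS (0.59, 0.44 to 0.79). The whole-gate log2 ratio of Atf3, -0.60, missed the 1.5-fold line at 7 other settings, where it lay between -0.58 and -0.24. Macrophage markers in the whole gate summed to 1366 CPM in DT and 417 CPM in PBS, and their part was not tested.

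The Treml4 gate showed the widest difference, with 10 of 10 members above 0 and a median log2 ratio of 0.70. In all, 6 members were past 1.5-fold: Ier3 with 673 CPM in DT and 252 CPM in PBS (ratio 2.67, 2.46 to 2.90), Egr1 with 635 and 286 CPM (2.22), Fosb with 236 and 112 CPM (2.11), Atf3 with 299 and 169 CPM (1.77), Junb with 2733 and 1677 CPM (1.63) and Fos with 2175 and 1349 CPM (1.61). In this gate 4.62% of all genes were higher and 4.48% lower by 1.5-fold, and 7.95% were higher among the 1032 genes at least as abundant as the least abundant member. Neutrophils were part of this gate, since 49.0% of its DT cells and 33.3% of its PBS cells also met the neutrophil gate. All 8 neutrophil markers were higher in DT, and none of the 6 nonclassical monocyte markers was, with Ace at 73.1 CPM in DT and 197 CPM in PBS. The part of these cell types in the difference was not tested. In single-gate cells, 84 in DT and 187 in PBS, the median log2 ratio was 0.88. There Ier3 had 466 CPM in DT and 63.4 CPM in PBS (7.35, 5.58 to 9.73), and Fos 1236 and 383 CPM (3.23). Neutrophil markers summed to 1349 CPM in DT and 375 CPM in PBS in those cells. In male-called cells of this gate Fos, Junb and Atf3 fell short of 1.5-fold, with log2 ratios of 0.58, 0.54 and 0.44.

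When the gate was parted by other markers, after the data were seen, the ratios differed by part. Cells with a Csf3r UMI, 189 in DT and 276 in PBS, had Ier3 at 964 CPM in DT and 425 CPM in PBS (ratio 2.27, 2.08 to 2.47) and Fos at 2753 and 1916 CPM (1.44). Cells with none of Csf3r, Ace and Adgre4, 65 in DT and 81 in PBS, had Ier3 at 284 and 67.0 CPM (4.24, 3.11 to 5.84) and Egr1 at 198 and 55.5 CPM (3.57, 2.51 to 5.14). Cells with a UMI of Ace or Adgre4, genes of nonclassical monocytes, and none of Csf3r made up 14.8% of the gate in DT (44 cells) and 28.9% in PBS (145 cells). In those cells the median log2 ratio was -0.21. Fosb had 8.47 CPM in DT and 69.1 CPM in PBS there (0.12, 0.01 to 0.46), and Jun 233 and 381 CPM (0.61, 0.45 to 0.81). Ier3, at 12.7 CPM in DT and 22.0 CPM in PBS, had an interval of 0.11 to 1.92, which includes 1, and so did Egr1 with 1 DT and 23 PBS UMIs (0.0045 to 1.13). Junb, at 1000 and 597 CPM (1.68, 1.44 to 1.95), and Atf3, at 182 and 97.1 CPM (1.88, 1.28 to 2.71), were higher in DT there as in the whole gate. Nr4a1, which nonclassical monocytes require, had 305 CPM in DT and 387 CPM in PBS (0.79, 0.60 to 1.01).

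**Figure D4:**
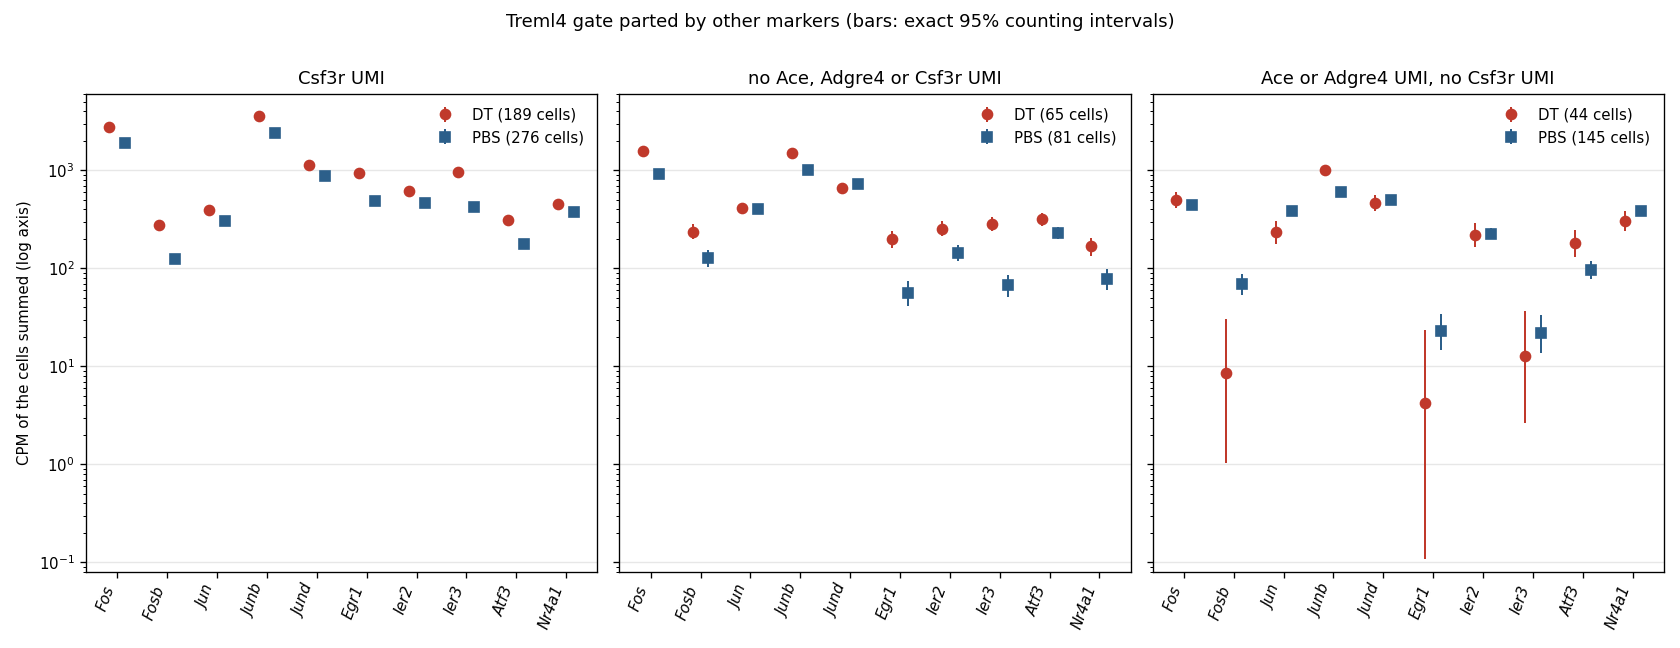
Levels of the 10 genes in 3 parts of the Treml4 gate, in CPM on a log axis, with DT as circles and PBS as squares and exact 95% counting intervals. In the right panel, cells with Ace or Adgre4 and no Csf3r, Fosb, Egr1 and Ier3 of the DT library lie at 8.47, 4.24 and 12.7 CPM, from 2, 1 and 3 UMIs, and Junb and Atf3 lie above PBS.

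In the Cd3e gate, which takes T cells, 3 members were past 1.5-fold higher: Ier3 with 124 CPM in DT and 49.2 CPM in PBS (ratio 2.52, 2.25 to 2.84), Egr1 with 112 and 66.9 CPM (1.68) and Nr4a1, which T cell receptor signals induce, with 78.4 and 48.2 CPM (1.62, 1.43 to 1.85). Of all genes in the gate, 0.831% were higher and 0.899% lower by that much. Junb had 732 CPM in DT and 547 CPM in PBS (1.34, 1.29 to 1.39), whereas Jun was lower, at 111 and 138 CPM (0.80, 0.73 to 0.88). The Egr1 call ended without cells that held a Csf3r UMI (log2 ratio 0.13), and the Nr4a1 call after thinning (0.23). Much of the signal lay in cells that also met another gate. Of the Ier3 UMIs of the Cd3e gate, 13.2% in DT and 13.3% in PBS came from single-gate cells, although these were 80.5% and 78.6% of the cells.

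Among single-gate T cells, 961 in DT and 1035 in PBS, Nr4a1 had 40.8 CPM in DT and 22.9 CPM in PBS (ratio 1.78, 1.42 to 2.24), and 1.70 (1.34 to 2.16) without the 1 richest cell of each library. Ier3 had 23.7 CPM in DT and 10.4 CPM in PBS, from 119 UMIs in 56 DT cells and 57 UMIs in 39 PBS cells. A single DT cell held 31 of the 119, and the ratio of 2.28 was 1.81 (1.28 to 2.60) without the richest cell of each library. Egr1 had 33.8 CPM in DT and 23.3 CPM in PBS (1.45, 1.15 to 1.84), and Jund, the most abundant member there, 604 and 641 CPM (0.94, 0.90 to 0.99). Relative to single-gate neutrophils, Cxcr2, a neutrophil marker that no gate used, stood at 0.32% in DT and 0.0644% in PBS in these cells (2.99 and 0.729 CPM), and Ier3 at 1.33% in DT and 0.895% in PBS, Nr4a1 at 6.97% and 5.82%, and Jund at 30.2% and 27.4%. The share of thinned cells of the whole gate with an Ier3 UMI was 4.47% in DT (3.36 to 5.80) and 1.91% in PBS (1.24 to 2.81).

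In the Cd79a gate, which takes B cells, Ier3 had 123 CPM in DT and 42.1 CPM in PBS (ratio 2.92, 2.53 to 3.39) and was the member past 1.5-fold, against 2.79% of genes higher and 1.91% lower. Of the Ier3 UMIs of the Cd79a gate, 14.0% in DT and 4.68% in PBS came from single-gate cells. These were 89.3% and 88.1% of its cells. Egr1 followed in the whole gate at 97.7 CPM in DT and 66.2 CPM in PBS (1.48, 1.29 to 1.69). In single-gate B cells Egr1 had 22.7 CPM in DT and 17.3 CPM in PBS (1.31, 0.95 to 1.81), an interval that includes 1. In single-gate B cells Ier3 came from 67 UMIs in 26 DT cells and 14 UMIs in 11 PBS cells. A single DT cell held 32 of the 67, and the ratio of 8.16 was 5.42 (2.69 to 11.84) without the richest cell of each library. Jun was lower in DT, with 135 CPM against 178 CPM in PBS in the whole gate (0.76, 0.68 to 0.84). In single-gate B cells, 1057 in DT and 1376 in PBS, Jun had 94.3 CPM in DT and 157 CPM in PBS, from 291 and 825 UMIs (0.60, 0.52 to 0.69). It was carried by 162 of those DT cells and 375 of those PBS cells. The log2 ratio of Jun in the whole gate was -0.43 among male-called and -0.58 among female-called cells. Jund did not share in this, at 733 CPM in DT and 742 CPM in PBS (0.99, 0.94 to 1.04). Other markers moved with this gate: the B cell markers summed to 7103 CPM in DT and 12617 CPM in PBS, and epithelial markers to 1123 and 80.7 CPM. Most of the epithelial sum in DT was Sftpc, at 860 CPM in DT and 5.77 CPM in PBS, with Scgb3a2 and Cyp2f2 at 0 in DT. In single-gate cells B cell markers summed to 8089 CPM in DT and 12956 CPM in PBS. Epithelial markers summed to 1407 and 91.2 CPM there, and red cell markers to 360 and 6.84 CPM. Their part was not tested.

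The Ncr1 gate, which takes NK cells, had 3 members past 1.5-fold. Ier3 had 135 CPM in DT and 68.6 CPM in PBS (ratio 1.97, 1.54 to 2.53), Egr1 112 and 57.6 CPM (1.95, 1.49 to 2.56) and Nr4a1 58.4 and 31.1 CPM (1.88, 1.29 to 2.76). Of all genes, 3.0% were higher and 2.87% lower by that much. Neutrophil markers summed to 2327 CPM in DT and 1222 CPM in PBS in the whole gate and to 38.0 and 45.1 CPM in single-gate cells. In single-gate cells, 193 in DT and 228 in PBS, no member with at least 20 UMIs was past 1.5-fold. Egr1 had 25 UMIs in DT and 22 in PBS there (1.34, 0.73 to 2.50), and Ier3 only 10 and 7, so that a difference was not detectable at this depth. In the whole gate the log2 ratio of Ier3, 0.93, was 0.08 without the 6% of cells with most UMIs and -0.07 after thinning, where Egr1 stood at 0.39 and Nr4a1 at 0.45. The thinned shares of the whole gate for Ier3, 4.67% in DT and 3.93% in PBS, also overlapped.

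Genes that act with the members were read from lists of 94 genes. One list held early response genes outside the members, mostly transcription factors, with Per1, Btg1 and Btg2 among them. Of the 21 measured in the neutrophil gate, 1 was higher and 1 lower by 1.5-fold, against 1.38% and 1.53% of all genes. The median log2 ratio lay between -0.10 in the Cd209a gate (16 genes measured) and 0.41 in the Treml4 gate (21 genes). Per1, a clock gene that glucocorticoids and other signals induce rapidly, was past 1.5-fold higher in 8 of 8 gates. It had 251 CPM in DT and 144 CPM in PBS in neutrophils (ratio 1.74, 1.60 to 1.90), 52.5 and 22.3 CPM in the Cd3e gate (2.35, 1.97 to 2.81) and 153 and 48.6 CPM in the Treml4 gate (3.14, 2.62 to 3.77). Klf4, a myeloid early factor, was lower in neutrophils, with 30.05 CPM in DT and 74.5 CPM in PBS (0.40, 0.34 to 0.48), and in single-gate neutrophils with 22.0 and 42.3 CPM (0.52, 0.37 to 0.72). The 6 markers of nonclassical monocytes summed to 372 CPM in DT and 556 CPM in PBS in that gate, and 9.79% of its DT cells and 15.8% of its PBS cells also met the Treml4 gate; their part was not tested. Of the early genes downstream of NF-kB, 3 of 12 were higher and 0 lower in neutrophils, against 1.38% and 1.53% of all genes. The 3 were Tnfaip3 (426 CPM in DT, 240 CPM in PBS), Tnf (190 and 107 CPM) and Cxcl2, which encodes a neutrophil chemokine (10260 and 6244 CPM). In single-gate neutrophils Tnfaip3 had a ratio of 1.74 (1.59 to 1.91) and Tnf 1.71 (1.48 to 1.97). Cxcl2 had 1.49 there (1.46 to 1.51), under the 1.5-fold line. Over this list the median log2 ratio was 0.48 in neutrophils, 0.49 in classical monocytes and 0.61 in the Treml4 gate. In the Treml4 gate 6 of its genes were higher and 1 lower, against 4.62% and 4.48% of all genes. Neutrophil markers were also higher in DT in that gate (12537 and 8433 CPM), and their part was not tested. In the other 5 gates the list median lay between 0.03 (Ncr1) and 0.44 (Cd3e).

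Feedback genes had medians between 0.03 in the Cd79a gate and 0.40 in the Ncr1 gate. In the whole Ncr1 gate 4 of 9 were past 1.5-fold higher, against 3.0% of all genes. Neutrophil markers were also higher in DT in that gate (2327 and 1222 CPM), and their part was not tested. List genes were recomputed in single-gate cells for neutrophils only. Dusp1, which encodes a phosphatase of MAP kinases, had 5218 CPM in DT and 4129 CPM in PBS in neutrophils (ratio 1.26, 1.24 to 1.29) and 2593 and 1287 CPM in the Treml4 gate (2.01, 1.94 to 2.09). In single-gate neutrophils the ratio of Dusp1 was 1.09 (1.07 to 1.12). In the whole neutrophil gate 0 of 12 feedback genes were past 1.5-fold in either direction, with a median of 0.24. Zfp36, whose protein speeds the decay of early mRNAs, had 3325 CPM in DT and 2419 CPM in PBS in neutrophils (1.37, 1.34 to 1.41), and 0 of 7 mRNA decay genes were past 1.5-fold there. In single-gate neutrophils the ratio of Zfp36 was 1.27 (1.23 to 1.30). The kinases and factors upstream of the members, such as Srf and Creb1, had 0 of 16 past 1.5-fold in neutrophils and a median log2 ratio between -0.18 and 0.05 over the gates. Of 13 other bZIP partners, Jdp2, an AP-1 repressor, was the 1 past 1.5-fold in neutrophils, with 94.6 CPM in DT and 59.0 CPM in PBS. Its ratio was 1.60 there (1.40 to 1.85) but 1.27 (1.06 to 1.51) in single-gate neutrophils.

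Heat shock genes, another stress response, had lower values in DT. In neutrophils 0 of 11 were above 0, with a median log2 ratio of -0.34, and the medians over the 8 gates lay between -0.63 and -0.27. Hspa1a had 58.0 CPM in DT and 90.0 CPM in PBS in neutrophils (ratio 0.64, 0.56 to 0.74), and Dnajb1 24.6 and 45.2 CPM in the C1qa gate (0.54, 0.44 to 0.67). In the Cd79a gate 6 of 11 were past 1.5-fold lower, against 1.91% of all genes. Among the 6 was Dnaja1, with 74.4 CPM in DT and 158 CPM in PBS. In 7 of 8 whole gates, all but Cd209a, the median of the immediate early genes was above 0 while that of the heat shock genes was below it. The whole-gate median of the members in Cd79a was 0.11, against 0.07 over all genes of that gate. In single-gate cells the member median was -0.03 in Cd79a, 0.11 in Cd209a and -0.13 in Ncr1 (members with at least 20 UMIs). Heat shock medians were not computed in single-gate cells.

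Patterns over the 16 sums of gate by library were compared by Pearson's r of log2(CPM + 5), as a description, since these sums share libraries and cells. Among members, Fos and Junb were most alike (r = 0.977) and Jun and Jund least (r = 0.283). Of 9236 other genes, those most like Fos were Ccr1 (0.996), Gda (0.987) and Mir22hg (0.983), and those most like Egr1 were Ets2 (0.991), Il1b (0.990) and Nfkbiz (0.989). Ier3 was most like Dhx38 (0.972), Ptgs2 (0.968) and Ccrl2 (0.967). Atf3 was most like Clec7a (0.982), Gabarap (0.981) and Lamp2 (0.980), and Nr4a1 most like Msrb1, Gsr and Cebpb (each 0.969). Jund was most like Fbxo31 (0.964), Ly6g (0.962) and Fam122a (0.944).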

How the data were processed

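The submitters deposited 1 table per library of log2(CPM + 1) per cell and gene. The genome (mm10) and the tools STAR, Partek and Seurat come from the submitters' processing notes, without their settings. The plan had assumed counts. Undoing the log and dividing by the smallest value of the cell therefore came first, and 100% of the values above 0 were then whole UMIs within 1%. In all, 8 barcodes occurred in both libraries.

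Cells were left out if they had under 200 genes, under 500 UMIs or over 10% of UMIs from mitochondrial genes (307 DT cells and 51 PBS cells). No doublet caller was run, and single-gate cells served as the alternative. UMIs were summed per gate and library and scaled to CPM. Log2 ratios had 5 CPM added to both sides, and printed ratios had none. Intervals are exact: conditional binomial for ratios, Poisson for levels and Clopper-Pearson for shares. Genes counted as background had at least 50 UMIs in a gate, and members at least 20. With 1 library per group no p-value was computed. The steps were tested on simulated data.

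All 10 members were named in all gates. From each list up to 4 genes per gate were eligible, those with the greatest absolute log2 ratio past 1.5-fold. Dusp1 and Zfp36 are also given in neutrophils, where they fall outside that rule, and this was chosen after their values were seen. For 6 members the 3 most alike genes were named. Members and lists were chosen with earlier results of these data known. Fosl1 was not used here. Ratios by sex call needed at least 30 cells per library. Python 3.11.15, numpy 2.4.6, scipy 1.17.1 and pandas 2.3.3 were used.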

Additional observations from a re-analysis of the deposited data

Results flagged for a closer look

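Atf3 went in opposite directions in 2 gates. Its log2 ratio of DT over PBS was 0.80 in the Treml4 gate, with 299 CPM in DT and 169 CPM in PBS, and -0.60 in the Cd209a gate, with 108 CPM in DT and 167 CPM in PBS. The difference between the gates was not tested.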

How the results depend on the processing

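Each group is 1 library, so no replicate could be left out. No paired analysis was possible because no test was run and each group has 1 library. Of 142 recomputed gate medians, 113 stayed within the counting interval, and 29 moved beyond it. That interval runs from the median of the members' lower bounds to the median of their upper bounds. The 113 include 8 that could not move, since all 10 members already had at least 20 UMIs in every gate. Of the 142 medians, 11 in 6 gates lay on the other side of 0, 5 of them in Cd79a. The cell filters, both rescalings, the added CPM and the removal of the richest cell per gene changed none beyond that interval, and of the 18 calls past 1.5-fold all 18 held without the cell filter, 12 of 17 in single-gate cells, 13 with equal weight per cell, 12 after thinning, 9 as means of deposited log2 values and 7 in male-called cells. All 112 list medians stayed within theirs. For every value below the cause of the change was not tested.

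In single-gate cells the member medians were 0.0773 (neutrophil), 0.88 (Treml4), 0.11 (Cd209a) and -0.13 (Ncr1, members with at least 20 UMIs), and Nr4a1 in the Ncr1 gate was -0.39. At least 2 UMIs of the gating gene gave 0.77 for Treml4. Thinning to 1000 UMIs gave 0.13 (neutrophil) and 0.88 (Treml4), equal weight per cell 0.11 and 0.85, and Ier3 in the Ncr1 gate was -0.0705 and -0.15 under these. Means of the deposited log2 values gave -0.0206 (neutrophil), 1.05 (Treml4), 0.33 (C1qa) and -0.0854 (Cd79a). Without the 6% of cells with most UMIs the Treml4 median was 0.87.

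Male-called cells gave 0.62 (neutrophil), 0.0558 (classical monocyte), 0.49 (Treml4), -0.22 (C1qa, with Ier3 at -0.58), 0.0654 (Cd209a), 0.33 (Cd3e) and -0.34 (Cd79a). Female-called cells gave 1.04 (classical monocyte), 0.39 (C1qa), 0.76 (Cd3e) and 0.95 (Cd79a), and the other 4 gates had under 30 such cells in PBS and were not run. Chosen after seeing the data, neutrophils with a Ccl3 UMI gave 0.16, and cells with no Csf3r UMI gave 0.77 (Treml4) and 0.0564 (Cd3e), with Nr4a1 in the Ncr1 gate at -0.20. Treml4 cells with Ace or Adgre4 and no Csf3r gave -0.21, with Fosb at -2.46, Egr1 at -1.60 and Ier3 at -0.61.

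For the share of cells with 5 or more members, the difference of DT minus PBS in percentage points was 0.646 (neutrophil), 1.98 (classical monocyte), 8.03 (Treml4) and -1.51 (Cd79a) without thinning, and 2.05 (classical monocyte) and 14.2 (Treml4) at 500 UMIs.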
